A study of Mus musculus with 12 samples.

Results

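Il21, the gene of interleukin-21, and 7 genes of the receptors and signalling chain through which interleukin-21 and interleukin-6 reach the transcription factor STAT3 were followed in RNA-seq libraries of mouse CD4+ T cells. The 8 genes are Il21, Il21r, Il6ra, Il6st, Jak1, Stat3, Socs3 and Pim1. They were found by symbol among the 35492 symbols of the deposited tables, and all 8 were present and passed the filter on low values. They were chosen by name, with no threshold on a measured value, but with earlier results of these libraries known.

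The series holds 12 libraries in 4 groups of 3, all from C57BL/6J mice 7 weeks of age, and RNA was taken from 300000 cells. Tfh_TILS cells were CD4+ CXCR5+ PD1+ cells isolated by sorting out of tumours of MC38, a colon carcinoma line of the mouse. The 3 other groups were naive CD4+ T cells grown on plates coated with antibodies to CD3 and CD28. Tfh_Vitro cells came from wild-type spleen and lymph nodes and received IL-6 and IL-21, each at 50 ng/ml, with antibodies that block IL-4, interferon gamma and TGF-beta, each at 10 µg/ml. Tfh_OTII cells received the same additions but came from OT-II mice, a transgenic line with an ovalbumin-specific T cell receptor on its CD4+ cells. Th1_Vitro cells came from wild-type mice and received IL-12 at 10 ng/ml with the IL-4 blocking antibody at 10 µg/ml. The titles give 24 h for Tfh_Vitro and Th1_Vitro and 48 h for Tfh_OTII, whereas the protocol gives 48 h for both culture recipes. Recipe, culture time as titled, receptor transgene and source therefore differ together in most comparisons and cannot be told apart. Both Tfh cultures contained added IL-21 and IL-6 protein, the ligands of the receptors measured here.

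Interleukin-21 is made by activated CD4+ T cells, above all by follicular helper (Tfh) cells, and drives B cells in germinal centres. It binds IL-21R paired with the common gamma chain, and the kinases JAK1 and JAK3 then phosphorylate STAT3. Interleukin-6 binds IL-6R alpha, encoded by Il6ra, which joins gp130, encoded by Il6st, and again JAK1 and STAT3 act downstream. STAT3 switches on Socs3, whose protein binds gp130 and JAK and dampens the signal, and Pim1, a serine/threonine kinase of growth and survival. In T cells this chain is a known route to the Tfh programme and to Il21 itself.

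Values are TPM, transcript abundances relative to all transcripts of a library and corrected for transcript length, so levels of different genes can be compared within a library. The Th1_Vitro libraries stood apart in several ways. Symbols at 0 were 19.5% to 41.4% there and 8.2% to 23.9% elsewhere. Predicted, ribosomal, small RNA and mitochondrial genes took 64.4% to 79.5% of TPM there and 33.3% to 50.9% elsewhere. Spearman correlations between replicates were 0.826 to 0.828 there and 0.865 to 0.92 elsewhere. Every library has the same TPM total. The 12 most abundant gene models of each library, which may differ between libraries, took 52.1% to 68.1% of the total in Th1_Vitro against 15.4% to 32.6% in the other groups. Differences are therefore given as deposited and after median-of-ratios scaling, which divided each library by a size factor of 0.469 to 0.674 in Th1_Vitro and 1.08 to 1.42 elsewhere. Scaling lowered the median difference of all genes against Th1_Vitro by 0.63 (Tfh_Vitro), 0.67 (Tfh_OTII) and 0.72 (Tfh_TILS) on the log2 scale. That median includes low genes, whose shifts the log2(TPM + 1) scale understates. The mean size factors themselves exceeded that of Th1_Vitro by 1.0598, 1.1269 and 1.2041 on the log2 scale, in the same order. Abundant genes moved by about that much, such as Stat3 in Tfh_Vitro, from 1.23 to 0.18. Calls are genes whose limma p-value, adjusted by the Benjamini-Hochberg method, was under 0.05, and "rose" and "fell" are used only for genes called in the same direction both ways. Against Th1_Vitro this rule is one-sided. It kept all genes called higher after scaling (2104, 2901 and 2434 in Tfh_Vitro, Tfh_OTII and Tfh_TILS). Of the 1248, 1889 and 1764 called lower after scaling it kept only 118, 265 and 128. A count of 0 lower both ways against Th1_Vitro therefore says little. All 8 T cell markers averaged over 1 TPM in every group. Of 8 Tfh markers, 7 did so in Tfh_TILS, Tfh_Vitro and Tfh_OTII alike and 6 in Th1_Vitro, and Ascl2 did so in no group. These 8 include Cxcr5 and Pdcd1, which encode the proteins used to sort Tfh_TILS. The summed 6 Th1 markers did not set Th1_Vitro (92.4 to 260 TPM) apart from Tfh_Vitro (184 to 243 TPM) as deposited, whereas after scaling their mean sum was 354 in Th1_Vitro against 180 in Tfh_Vitro, 144 in Tfh_OTII and 129 in Tfh_TILS. The summed 9 macrophage markers were 51.4, 587 and 147 TPM in Tfh_TILS replicates 1, 2 and 3 and at most 21.9 TPM in the cultures, and 5 neutrophil markers summed to 14.2, 491 and 93.2 TPM in the same tumour libraries and to at most 44.4 TPM in the cultures.

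Il21 had the largest differences of the 8 genes between either Tfh culture and the other 2 groups. It rose strongly in both cultures given IL-6 and IL-21 over the Th1 culture, and it fell in the sorted tumour cells to a level that overlapped that of the Th1 culture. Against Th1_Vitro as deposited, 6 of the 8 genes were called higher in Tfh_Vitro, where 41.1% of the 23308 genes tested were called higher, 5 in Tfh_OTII against 42.7% of all genes, and 6 in Tfh_TILS against 49.3%. Those shares include many genes of low level. With tests limited to the 12852 genes that averaged 5 TPM or over in any group, 7805, 7962 and 8726 of them were called higher. Their median log2 differences as deposited were 0.95, 1.02 and 1.10, against 0.78, 0.79 and 0.87 for all genes. After scaling, 2 were called higher in Tfh_Vitro (9.03% of all genes), 3 in Tfh_OTII (12.4%) and 0 in Tfh_TILS (10.4%), and 1 was called lower in Tfh_OTII (8.1%). The median log2 difference of the 8 genes after scaling, beside that of all genes, was 0.67 and 0.14 in Tfh_Vitro, 0.54 and 0.12 in Tfh_OTII, and 0.15 and 0.16 in Tfh_TILS. The medians of all genes again include low genes, whose differences the log2(TPM + 1) scale understates. Of all genes called against Th1_Vitro, those higher made up 98.8%, 97.4% and 98.8% in that order as deposited and 62.8%, 60.6% and 58.0% after scaling. Before adjustment, limma gave Il6ra alone a p under 0.05 in that scaled comparison of Tfh_TILS (0.0165), and trimmed-mean scaling also called 0. Against Tfh_Vitro, Tfh_TILS had 1 gene called lower as deposited (0.944% of all genes) and 1 after scaling (1.22%). Against Tfh_OTII, Tfh_TILS had 1 called higher (7.97%) and 1 lower (7.29%) as deposited, and 1 higher (7.01%) and 2 lower (8.31%) after scaling. Between Tfh_OTII and Tfh_Vitro, limma called 0 of the 8 both as deposited, where 2.38% of all genes were called, and after scaling, where 1.89% were. Only Il6ra had an unadjusted p under 0.05 between these cultures, 0.0083 as deposited and 0.0021 after scaling. The comparisons share groups, so their counts are not independent of each other.

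**Figure D1:**
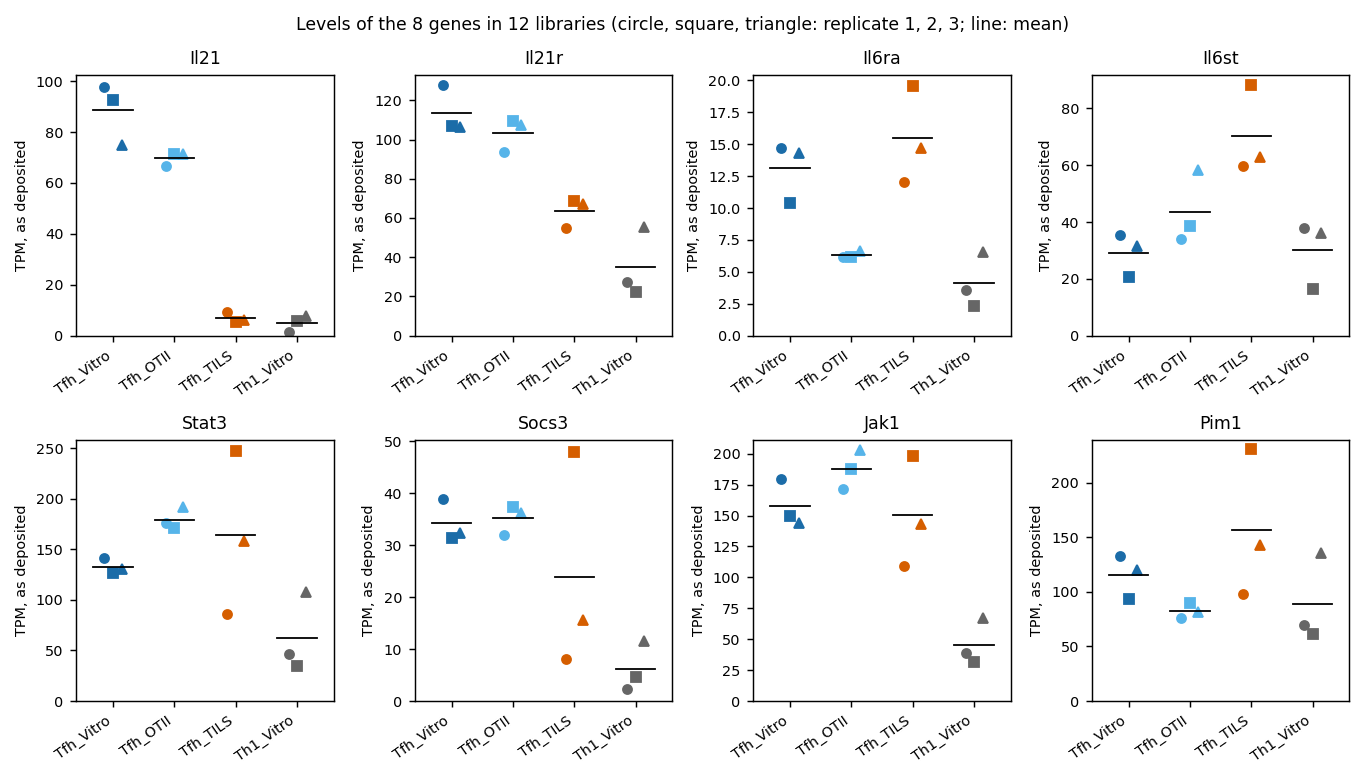
Levels of the 8 genes in TPM as deposited, 1 panel a gene with its own axis from 0, in the 4 groups. Circles, squares and triangles are replicates 1, 2 and 3 and lines are means. Il21 stands at 66.8 TPM or more in both Tfh cultures and at 9.25 TPM or less in Tfh_TILS and Th1_Vitro, and Tfh_TILS replicate 2 is the highest tumour library for 7 of the 8 genes.

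Il21 lies on chromosome 3 at 37222759 to 37232636 of GRCm38, minus strand. It was measured at 97.8, 92.8 and 75.1 TPM in Tfh_Vitro and at 66.8, 71.4 and 71.3 TPM in Tfh_OTII (replicates 1, 2 and 3). It was at 9.25, 5.28 and 6.14 TPM in Tfh_TILS and at 1.49, 5.88 and 7.69 TPM in Th1_Vitro. Every library of both Tfh cultures was above every library of the other 2 groups, and the ranges of Tfh_TILS and Th1_Vitro overlapped. The mean in Tfh_Vitro was 17.6 times that in Th1_Vitro, a log2 difference of 4.07 ± 0.38 (SE, limma adjusted p = 1.22e-05), and 3.16 ± 0.42 after scaling (adjusted p = 0.000542). In Tfh_OTII the mean was 13.9 times that in Th1_Vitro, with a log2 difference of 3.74 ± 0.38 (limma adjusted p = 9.53e-06) and 2.77 after scaling (adjusted p = 0.000621). By size of the difference to Th1_Vitro as deposited, Il21 was number 97 from the top of all genes tested in Tfh_Vitro and number 258 in Tfh_OTII.

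The tumour cells went the other way. Mean Il21 in Tfh_TILS was lower than in Tfh_Vitro by a factor of 12.9, a log2 difference of -3.53 ± 0.38 (limma adjusted p = 0.000938) and -3.61 ± 0.42 after scaling (adjusted p = 0.00162). Only 14 of the 23308 genes tested had a lower difference in that comparison as deposited. Against Tfh_OTII the factor was 10.1, with -3.20 ± 0.38 as deposited (limma adjusted p = 0.000188) and -3.22 ± 0.42 after scaling (adjusted p = 0.000402). All 4 of these Il21 differences stayed called when any 1 of the 12 libraries was left out, on both scales. Without Tfh_TILS replicate 2, the library with the most macrophage and neutrophil marker RNA, the differences were -3.38 against Tfh_Vitro and -3.05 against Tfh_OTII. Tfh_TILS and Th1_Vitro were not told apart, with 0.54 (95% interval -0.27 to 1.36, limma adjusted p = 0.235) as deposited and -0.46 (-1.36 to 0.45, adjusted p = 0.481) after scaling. Without Th1_Vitro replicate 1, the library with the lowest Il21, the scaled difference was -1.08 and was called (limma adjusted p = 0.0269). The 2 Tfh cultures did not overlap in Il21 as deposited, and their difference, Tfh_OTII minus Tfh_Vitro, was -0.33 (95% interval -1.15 to 0.49, limma adjusted p = 0.823). In sorted or cultured cells measured in bulk, fewer Il21-expressing cells and less Il21 RNA per cell cannot be told apart.

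The bases just upstream of the Il21 start are shown because Il21 carries the largest of these differences, with matches to the core of sites bound by NFAT, the calcium-dependent factor downstream of the T cell receptor, in capitals. The core was searched as GGAAAA and, for the other strand, TTTTCC, in the 250 bases before the RefSeq start. The window is chr3:37232637-37232886 of GRCm38.p6 (RefSeq), read 5′ to 3′ on the minus strand.
Il21 upstream: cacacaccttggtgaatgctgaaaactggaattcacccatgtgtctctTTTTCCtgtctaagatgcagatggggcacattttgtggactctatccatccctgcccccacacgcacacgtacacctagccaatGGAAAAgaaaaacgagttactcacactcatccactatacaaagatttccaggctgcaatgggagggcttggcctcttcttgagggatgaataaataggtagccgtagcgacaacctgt
The matches begin 202 and 118 bases before the start. Of 32851 RefSeq promoter windows of that length, 20.4% hold this core, and 2 of the 8 genes do, Il21 and Pim1. The Il21 window holds no match to TTCNNNGAA, the palindrome bound by STAT dimers.

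Il21r, the ligand-binding chain for IL-21 (chromosome 7, 125603429 to 125633570, plus strand), was also highest in the cultures that contained IL-21. It was at 128, 107 and 106 TPM in Tfh_Vitro and at 93.4, 109 and 107 TPM in Tfh_OTII. In Tfh_TILS it was at 54.8, 68.6 and 67.2 TPM, and in Th1_Vitro at 27.2, 22.3 and 55.2 TPM. As deposited, both Tfh cultures were above all libraries of the other 2 groups, and Tfh_TILS overlapped Th1_Vitro through Th1_Vitro replicate 3. After scaling, Tfh_OTII overlapped Th1_Vitro, and Tfh_Vitro did not. Il21r was called higher than in Th1_Vitro in all 3 other groups as deposited (log2 difference 1.78 in Tfh_Vitro, 1.64 in Tfh_OTII and 0.95 in Tfh_TILS, limma adjusted p = 0.000474, 0.000527 and 0.0156) and in none after scaling (0.73, 0.53 and -0.24, adjusted p = 0.0637, 0.142 and 0.529). Leaving out Th1_Vitro replicate 3 gave scaled differences of 0.94 in Tfh_Vitro (limma adjusted p = 0.0199) and 0.75 in Tfh_OTII (adjusted p = 0.0349), both called, whereas the deposited call in Tfh_TILS was lost without Th1_Vitro replicate 1 or 2 (adjusted p = 0.0532 to 0.0649). Against Tfh_Vitro, Il21r in Tfh_TILS differed by -0.83 as deposited (limma adjusted p = 0.178) and by -0.97 after scaling (adjusted p = 0.0603), with no overlap of libraries, and was called both ways without Th1_Vitro replicate 3 (adjusted p = 0.0157 and 0.0287). In Tfh_TILS the mean was below Tfh_OTII by 0.70 as deposited (limma adjusted p = 0.123) and by 0.77 after scaling (adjusted p = 0.0487). The scaled call was lost without any of 8 libraries (adjusted p = 0.0588 to 0.179), those of Tfh_TILS and Tfh_Vitro and Tfh_OTII replicates 2 and 3, and the deposited one appeared without Th1_Vitro replicate 3 (adjusted p = 0.009).

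Il6ra, the IL-6 binding chain (chromosome 3, 89864059 to 89913196, minus strand), was the least abundant receptor gene of the 3 in every library. It was at 12.1, 19.6 and 14.7 TPM in Tfh_TILS and at 14.7, 10.4 and 14.3 TPM in Tfh_Vitro. It was at 6.18, 6.14 and 6.65 TPM in Tfh_OTII and at 3.55, 2.35 and 6.59 TPM in Th1_Vitro. The tumour cells and the wild-type Tfh culture shared the upper range, and the OT-II culture lay near the Th1 culture. Il6ra rose in Tfh_TILS over Tfh_OTII by 1.14 ± 0.30 (limma adjusted p = 0.0216) and by 1.04 ± 0.25 after scaling (adjusted p = 0.0146). That call rested on single libraries: it was lost as deposited without Tfh_TILS replicate 2 or 3 or any Tfh_OTII library (adjusted p = 0.0525 to 0.0787), and after scaling without Tfh_TILS replicate 2 or Tfh_OTII replicate 2 (adjusted p = 0.0501 to 0.053). Mature macrophages and neutrophils also express Il6ra, and the tumour library with most of their markers had the highest Il6ra, 19.6 TPM. The part of those cells was not tested. Tfh_OTII was below Tfh_Vitro by 0.93 (95% interval of the difference -1.58 to -0.28, limma adjusted p = 0.149), with no overlap of libraries, and this was called without Th1_Vitro replicate 3 (adjusted p = 0.0421 as deposited and 0.0338 after scaling). Against Th1_Vitro, Il6ra was called higher in Tfh_Vitro (1.52) and Tfh_TILS (1.73) as deposited only (limma adjusted p = 0.00176 and 0.000608), with 0.62 and 0.70 after scaling (adjusted p = 0.119 and 0.0742). Without Th1_Vitro replicate 3 both scaled differences were called (0.82 and 0.90, limma adjusted p = 0.0442 and 0.0283), as was that of Tfh_OTII to Th1_Vitro as deposited (0.91, adjusted p = 0.0119).

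Il6st encodes gp130, the signalling chain shared by IL-6, IL-27, LIF and related cytokines (chromosome 13, 112464070 to 112510086, plus strand). Its highest deposited levels were in the tumour cells, at 59.7, 88.3 and 63.0 TPM in Tfh_TILS. It was at 34.0, 38.6 and 58.3 TPM in Tfh_OTII, at 35.3, 20.7 and 31.6 TPM in Tfh_Vitro and at 37.8, 16.3 and 36.1 TPM in Th1_Vitro. As deposited, every tumour library was above every culture library. The difference to Tfh_Vitro was 1.25 ± 0.34 (95% interval 0.52 to 1.98) and missed the threshold after adjustment in limma (adjusted p = 0.0808, and 0.103 after scaling). It was called as deposited without Th1_Vitro replicate 2 (adjusted p = 0.0381). Against Th1_Vitro, Il6st in Tfh_TILS was called higher as deposited (1.27, limma adjusted p = 0.00822) but differed by 0.08 after scaling (adjusted p = 0.889). In Tfh_Vitro its difference to Th1_Vitro was 0.02 as deposited and -1.02 after scaling, where the libraries did not overlap and limma's adjusted p was 0.0502. The scaled difference was called without Tfh_OTII replicate 1, Tfh_OTII replicate 3 or Th1_Vitro replicate 2 (adjusted p = 0.0222 to 0.0462).

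**Figure D2:**
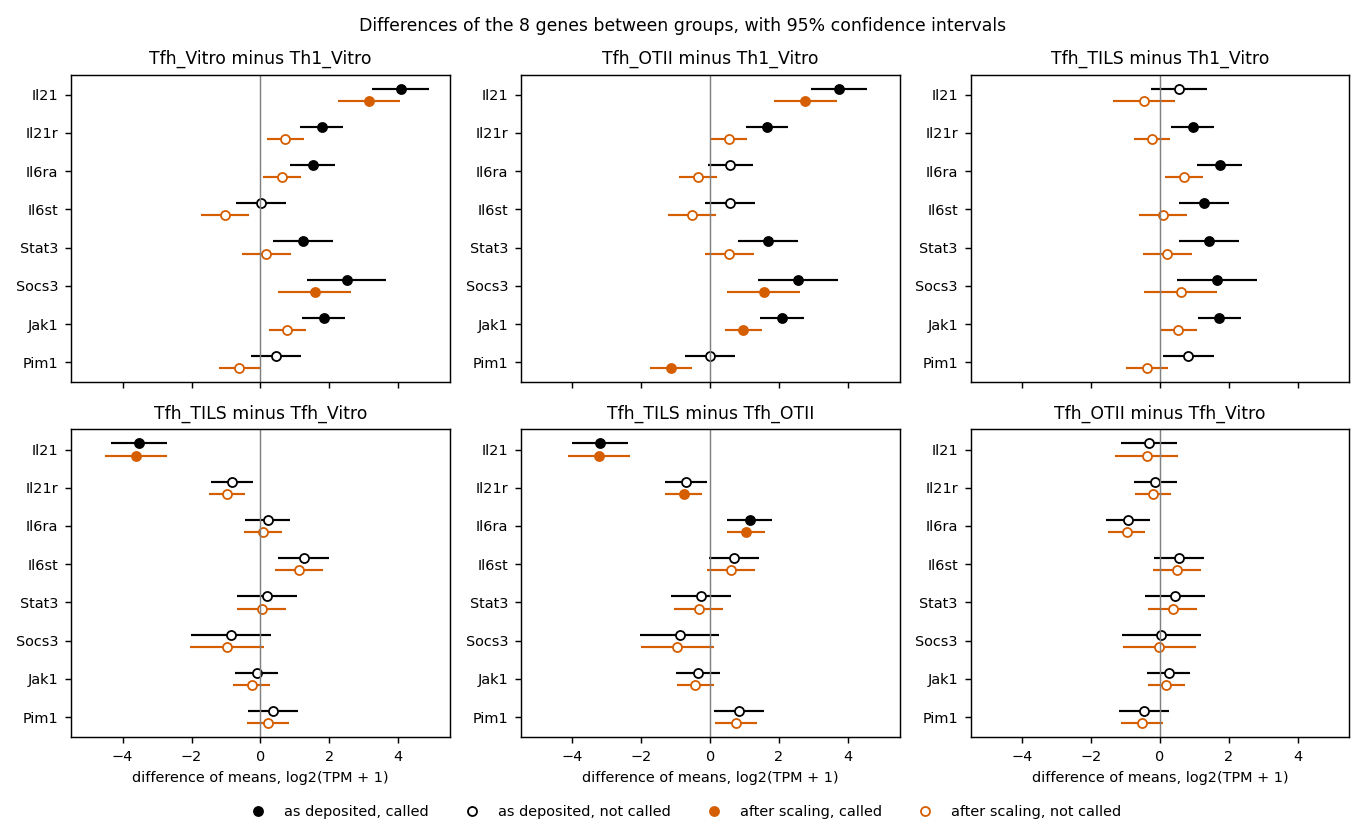
Differences of group means on the log2(TPM + 1) scale with 95% confidence intervals for the 8 genes in the 6 comparisons, black as deposited and orange after median-of-ratios scaling, filled where called. Il21 in the comparisons with Tfh_Vitro and Tfh_OTII lies farthest from 0, and the 3 comparisons with Th1_Vitro shift to the left after scaling.

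Jak1, the kinase bound to both receptor complexes (chromosome 4, 101152367 to 101265282, minus strand), was low in the Th1 culture. It was at 172, 188 and 203 TPM in Tfh_OTII and at 180, 150 and 144 TPM in Tfh_Vitro. It was at 109, 198 and 143 TPM in Tfh_TILS and at 38.9, 31.2 and 67.1 TPM in Th1_Vitro. No library of the 3 other groups reached down to the Th1_Vitro range as deposited. Jak1 rose in Tfh_OTII over Th1_Vitro by 2.08 ± 0.29 (limma adjusted p = 0.000106) and by 0.97 ± 0.25 after scaling (adjusted p = 0.0154), and the scaled call was lost without Tfh_OTII replicate 2 or 3 (adjusted p = 0.0562 to 0.0653). In Tfh_Vitro (1.83) and Tfh_TILS (1.73) it was called as deposited only (limma adjusted p = 0.00044 and 0.000512), with 0.78 and 0.53 after scaling (adjusted p = 0.0531 and 0.156). In Tfh_Vitro the scaled difference was called without Tfh_TILS replicate 2, Tfh_OTII replicate 1 or Th1_Vitro replicate 3 (adjusted p = 0.0387 to 0.0484).

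Stat3, the transcription factor on which the chain converges (chromosome 11, 100885098 to 100939540, minus strand), was called in no comparison between the 3 Tfh groups. It was at 175, 171 and 192 TPM in Tfh_OTII and at 141, 126 and 130 TPM in Tfh_Vitro. It spread from 86.0 over 159 to 248 TPM in Tfh_TILS (replicates 1, 3 and 2), a range that held all libraries of both Tfh cultures, and was at 46.2, 34.5 and 107 TPM in Th1_Vitro. Tfh_OTII was above Tfh_Vitro in every library as deposited (0.43, 95% interval -0.44 to 1.31, limma adjusted p = 0.754). Against Th1_Vitro Stat3 was called higher in all 3 other groups as deposited (1.23 in Tfh_Vitro, 1.67 in Tfh_OTII, 1.42 in Tfh_TILS, limma adjusted p = 0.0271, 0.00494 and 0.0117) and in none after scaling (0.18, 0.55 and 0.22, adjusted p = 0.764, 0.267 and 0.69). As deposited, the call in Tfh_Vitro was lost without any Tfh_Vitro library or Th1_Vitro replicate 1 or 2 (adjusted p = 0.0605 to 0.115), and that in Tfh_TILS without Tfh_TILS replicate 2 or Th1_Vitro replicate 2 (adjusted p = 0.0552 to 0.0566). Exons of Stat3 overlap those of Stat5a on the opposite strand. The library kit keeps strand, but whether strand was used in the quantification is not given in the sources used here.

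Socs3, the feedback inhibitor (chromosome 11, 117966079 to 117970047, minus strand), followed the cultures given IL-6 and IL-21. It was at 39.0, 31.3 and 32.3 TPM in Tfh_Vitro and at 31.9, 37.4 and 36.2 TPM in Tfh_OTII. It was at 2.30, 4.71 and 11.5 TPM in Th1_Vitro, below every library of both Tfh cultures. In Tfh_TILS it was at 8.07, 48.0 and 15.7 TPM, so that replicate 2 was above and replicates 1 and 3 were below all 6 libraries of the Tfh cultures. Socs3 rose over Th1_Vitro in Tfh_Vitro by 2.51 ± 0.53 (limma adjusted p = 0.00283) and by 1.57 ± 0.49 after scaling (adjusted p = 0.0498), and in Tfh_OTII by 2.55 ± 0.53 (adjusted p = 0.00201) and by 1.56 ± 0.49 after scaling (adjusted p = 0.0409). The scaled calls were close to the threshold and held only without Tfh_TILS replicate 1, Tfh_TILS replicate 2 or Th1_Vitro replicate 3, while leaving out any of the 9 other libraries gave adjusted p of 0.0642 to 0.163 in Tfh_Vitro and 0.053 to 0.157 in Tfh_OTII. In Tfh_TILS the deposited difference to Th1_Vitro was 1.66 (limma adjusted p = 0.0214), and it was not called without Tfh_TILS replicate 2 or Th1_Vitro replicate 1 or 2 (adjusted p = 0.062 to 0.0972) or after scaling (0.60, adjusted p = 0.43). Against Tfh_OTII the tumour cells differed by -0.89 (95% interval -2.04 to 0.27, limma adjusted p = 0.303), and without Tfh_TILS replicate 2 by -1.55, then called (adjusted p = 0.046).

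The stretch before the RefSeq start of Socs3 is shown because, of the 8 genes, it alone had a match to the STAT palindrome TTCNNNGAA in the 250 bases before its RefSeq start, given in capitals. The stretch is chr11:117969452-117969616 of GRCm38.p6 (RefSeq), minus strand, the part of that window ahead of the nearest exon of a GENCODE Socs3 transcript. GENCODE places the start of the gene farther out, at 117970047, so this stretch lies inside the gene as annotated there, in an intron of the transcript that begins at that position.
Socs3 before the RefSeq start: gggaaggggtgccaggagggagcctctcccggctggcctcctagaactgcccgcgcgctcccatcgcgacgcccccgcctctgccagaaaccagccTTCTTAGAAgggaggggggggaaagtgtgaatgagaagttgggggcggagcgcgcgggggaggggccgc
The match TTCTTAGAA begins 154 bases before the RefSeq start. Of all 32851 windows, 7.02% hold TTCNNNGAA, which reads the same on both strands. The narrower form TTCCNGGAA, held by 0.913% of windows, was in 0 of the 8 genes' windows.

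Pim1, the kinase gene downstream of STAT factors (chromosome 17, 29490753 to 29496112, plus strand), did not follow Socs3. It was at 97.7, 231 and 142 TPM in Tfh_TILS and at 133, 93.1 and 120 TPM in Tfh_Vitro. It was at 76.2, 89.7 and 81.7 TPM in Tfh_OTII and at 69.3, 61.1 and 135 TPM in Th1_Vitro. The Th1 culture overlapped all 3 other groups as deposited. After scaling it was above every library of Tfh_Vitro and Tfh_OTII and overlapped Tfh_TILS. Pim1 was called in no comparison as deposited. In Tfh_OTII its difference to Th1_Vitro was -0.01 as deposited and -1.13 ± 0.28 after scaling, where it was called lower (limma adjusted p = 0.0124), a call lost without Tfh_OTII replicate 1 (adjusted p = 0.0544). Leaving out single libraries gave further calls as deposited, each higher in the first group named: Tfh_Vitro against Th1_Vitro without Th1_Vitro replicate 3 (0.80, limma adjusted p = 0.0486), Tfh_TILS against Th1_Vitro without Tfh_TILS replicate 1 or Th1_Vitro replicate 3 (1.12 to 1.17, adjusted p = 0.00729 to 0.0197), and Tfh_TILS against Tfh_OTII without Th1_Vitro replicate 3 (0.83, adjusted p = 0.0477). After scaling, the differences to Th1_Vitro had the opposite sign, -0.61 in Tfh_Vitro and -0.38 in Tfh_TILS (limma adjusted p = 0.162 and 0.37). Neither was called. Both stayed negative whichever library was left out (-0.76 to -0.44 and -0.63 to -0.17).

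Tfh_TILS replicate 2 was the highest tumour library for 7 of the 8 genes as deposited and for 6 after scaling. Il21 was the exception on both scales, and there replicate 2 was lowest. The 8 T cell markers summed to 1710 TPM in that library and to 1054 and 1126 TPM in replicates 1 and 3. Its macrophage markers summed to 587 TPM, so markers of both cell types were highest there, and their part in the spread of Stat3, Socs3, Jak1 and Pim1 was not tested.

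Ratios of 2 genes within a library do not depend on the scaling of that library, and they are given as descriptions. Il21 over Il21r, ligand over receptor, was 0.71 to 0.87 in Tfh_Vitro and 0.65 to 0.71 in Tfh_OTII, against 0.077 to 0.17 in Tfh_TILS and 0.055 to 0.26 in Th1_Vitro. The 2 receptor arms stood in different proportions: Il21r over Il6st was 3.36 to 5.16 in Tfh_Vitro and 1.84 to 2.83 in Tfh_OTII, but 0.78 to 1.07 in Tfh_TILS and 0.72 to 1.53 in Th1_Vitro. Il21r over Il6ra was 15.1 to 17.8 in Tfh_OTII, 7.43 to 10.3 in Tfh_Vitro, 7.67 to 9.50 in Th1_Vitro and 3.50 to 4.57 in Tfh_TILS. The tumour cells thus had the least Il21r for their Il6ra, and the OT-II culture the most, with no overlap with any other group. Il6ra over Il6st was 0.42 to 0.50 in Tfh_Vitro and at most 0.23 elsewhere. Socs3 over Stat3 was 0.25 to 0.28 in Tfh_Vitro, 0.18 to 0.22 in Tfh_OTII, 0.094 to 0.19 in Tfh_TILS and 0.050 to 0.14 in Th1_Vitro. Pim1 over Stat3 ran in another order, with 1.26 to 1.77 in Th1_Vitro, above all other libraries, 0.90 to 1.14 in Tfh_TILS, 0.74 to 0.94 in Tfh_Vitro and 0.43 to 0.52 in Tfh_OTII.

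**Figure D3:**
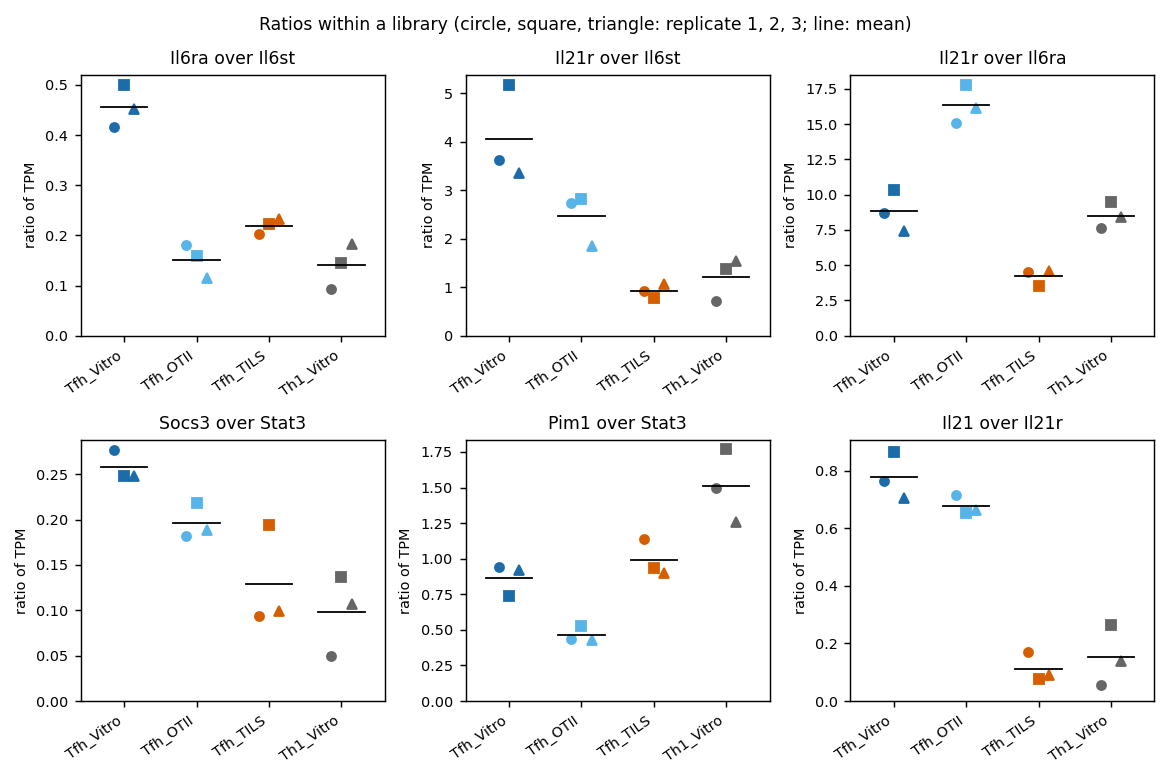
Ratios of TPM of 2 genes within each library, 1 panel a ratio with its own axis from 0. Circles, squares and triangles are replicates 1, 2 and 3 and lines are means. Il21r over Il6ra is 15.1 or more in Tfh_OTII and 4.57 or less in Tfh_TILS, and Pim1 over Stat3 is 1.26 or more in Th1_Vitro and 0.52 or less in Tfh_OTII.

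Of 62 other genes of the IL-6 family and STAT pathway, 61 passed the filter (Il22ra1 did not). Called in the same direction both ways were 17 higher and 0 lower in Tfh_Vitro against Th1_Vitro (all genes 9.03% and 0.506%), 9 and 0 in Tfh_OTII against Th1_Vitro (12.4% and 1.14%), and 18 and 1 in Tfh_TILS against Th1_Vitro (10.4% and 0.549%). By the scaled test alone, 17 were called higher and 4 lower in Tfh_Vitro against Th1_Vitro (all genes 9.03% and 5.35%), 9 and 6 in Tfh_OTII (12.4% and 8.1%), and 18 and 8 in Tfh_TILS (10.4% and 7.57%). Between the Tfh groups, 4 rose and 1 fell in Tfh_TILS against Tfh_Vitro (0.987% and 0.875%), 12 rose and 5 fell in Tfh_TILS against Tfh_OTII (6.75% and 6.87%), and 1 rose and 2 fell in Tfh_OTII against Tfh_Vitro (0.652% and 1.14%). The median log2 difference of the list after scaling, beside that of all genes, was 0.48 and 0.14, 0.23 and 0.12, and 0.47 and 0.16 against Th1_Vitro in the same order. Without Tfh_TILS replicate 2, the genes called as deposited in Tfh_TILS against Tfh_Vitro were 1 higher and 2 lower in place of 5 and 1. Their number was 0 without Tfh_Vitro replicate 1 or 2, 1 without Tfh_TILS replicate 3 or Tfh_OTII replicate 2, 13 without Tfh_TILS replicate 1, 10 without Th1_Vitro replicate 3 and 2 to 7 without any of the others. All genes called higher and lower there were 269 and 220 with every library and 146 and 190 without Tfh_TILS replicate 2. Without Tfh_Vitro replicates 1 and 2 in turn they were 56 and 45, and 52 and 42. Without Tfh_TILS replicate 3 and Tfh_OTII replicate 2 in turn they were 99 and 73, and 162 and 141. They were 676 and 207 without Tfh_TILS replicate 1 and 478 and 550 without Th1_Vitro replicate 3.

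Among ligands, Il10, an anti-inflammatory cytokine that signals through STAT3, was at 22.6, 149 and 40.7 TPM in Tfh_TILS and at 13.8, 9.49 and 22.4 TPM in Tfh_Vitro. It was at 0.98, 1.45 and 0.46 TPM in Tfh_OTII and at 0.53, 1.39 and 1.66 TPM in Th1_Vitro. It rose over Th1_Vitro in Tfh_Vitro by 2.85 (2.15 after scaling, limma adjusted p = 0.00145 and 0.0136) and in Tfh_TILS by 4.63 (3.78 after scaling, adjusted p = 6.26e-05 and 0.000757), and the scaled call in Tfh_Vitro was lost without Tfh_Vitro replicate 3 (adjusted p = 0.0683). It rose in Tfh_TILS over Tfh_OTII by 4.78 ± 0.54 (4.56 after scaling, limma adjusted p = 0.000147 and 0.000137) and fell in Tfh_OTII to a difference of -3.001 ± 0.54 from Tfh_Vitro (-2.93 after scaling, adjusted p = 0.0122 and 0.0113), so the 2 Tfh cultures differed in Il10. The call between the cultures was lost as deposited without Tfh_Vitro replicate 3 or Tfh_OTII replicate 3 (adjusted p = 0.0653 to 0.0918), and after scaling also without Tfh_OTII replicate 1. Il6 itself was at 3.67, 12.4 and 2.82 TPM in Tfh_TILS and at most 3.21 TPM in any culture library. The highest Il10 and Il6 were both in Tfh_TILS replicate 2, the library with the highest macrophage and neutrophil marker sums (587 and 491 TPM), and the part of those cells was not tested.

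Among targets, Maf, a transcription factor that drives Il21 and Il10 in T cells, did not run with Il21. It was at 43.4, 189 and 65.3 TPM in Tfh_TILS, at 18.3, 13.2 and 26.8 TPM in Tfh_Vitro, at 3.73, 3.34 and 2.22 TPM in Tfh_OTII and at 1.46, 1.42 and 1.54 TPM in Th1_Vitro. The groups did not overlap in TPM. Against Th1_Vitro, Maf rose in Tfh_Vitro by 2.99 (2.21 after scaling, limma adjusted p = 0.000237 and 0.00261) and in Tfh_TILS by 5.06 (4.13 after scaling, adjusted p = 1.24e-05 and 6.29e-05). Maf rose in Tfh_TILS over Tfh_Vitro by 2.07 ± 0.43 (1.92 after scaling, limma adjusted p = 0.0283 and 0.0204) and over Tfh_OTII by 4.35 (4.20 after scaling, adjusted p = 7.15e-05 and 4.33e-05). It fell in Tfh_OTII against Tfh_Vitro by 2.28 on both scales (limma adjusted p = 0.0156 and 0.00965). The call in Tfh_TILS against Tfh_Vitro was lost as deposited without any of 6 libraries, Tfh_TILS replicate 3, the 3 of Tfh_Vitro and Tfh_OTII replicates 1 and 2 (adjusted p = 0.0519 to 0.171), and that between the cultures without Tfh_Vitro replicate 3 or Tfh_OTII replicate 3 (0.0816 to 0.113). Icos, the costimulatory receptor of Tfh cells, rose in Tfh_TILS over Tfh_Vitro by 1.63 (1.49 after scaling, adjusted p = 0.0331 and 0.0328), and this was lost on both scales without Tfh_TILS replicate 2 or 3 or any library of Tfh_Vitro or Tfh_OTII (as deposited, 0.0542 to 0.188). Prdm1, which encodes the Bcl6 antagonist BLIMP1, rose in Tfh_TILS over Tfh_OTII by 3.46 (3.27 after scaling, adjusted p = 0.000358 and 0.000363) and over Th1_Vitro by 3.88 (3.07 after scaling, adjusted p = 6.09e-05 and 0.000862). In Tfh_TILS replicates 1, 2 and 3, Icos was at 136, 382 and 156 TPM and Prdm1 at 11.7, 59.1 and 24.4 TPM, so Maf, Icos and Prdm1 stood in the same order as the macrophage sum (51.4, 587 and 147 TPM) and the neutrophil sum (14.2, 491 and 93.2 TPM). The part of those cells was not tested. Pim2, the kinase related to Pim1, fell in Tfh_TILS against Th1_Vitro by 0.90 as deposited (limma adjusted p = 0.0478) and by 2.08 after scaling (adjusted p = 0.00168), the 1 gene of the list called lower there both ways, but as deposited this held only without Tfh_TILS replicate 1 or Th1_Vitro replicate 2 (otherwise 0.052 to 0.184), while after scaling it held without any 1 library.

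Of 12 inhibitor genes other than Socs3, those called higher both ways against Th1_Vitro were 4 in Tfh_Vitro (9.03% of all genes), 2 in Tfh_OTII (12.4%) and 3 in Tfh_TILS (10.4%). In the same order, 0 were called lower both ways, beside 0.506%, 1.14% and 0.549% of all genes. By the scaled test alone, 0, 0 and 1 were called lower, beside 5.35%, 8.1% and 7.57% of all genes. In Tfh_TILS, 1 was called higher and 0 lower both ways against Tfh_Vitro (all genes 0.987% and 0.875%), and 1 higher and 2 lower against Tfh_OTII (6.75% and 6.87%). Ptpn1 and Ptpn6 encode the phosphatases PTP1B and SHP-1, which act on JAK and STAT proteins. Ptpn6 was at 590, 615 and 638 TPM in Tfh_OTII and 304, 296 and 249 TPM in Tfh_Vitro. It was at 90.4, 245 and 128 TPM in Tfh_TILS and 52.2, 50.0 and 94.7 TPM in Th1_Vitro. Ptpn6 rose in Tfh_OTII over Th1_Vitro by 3.27 (2.15 after scaling, limma adjusted p = 1.17e-05 and 0.000319) and fell in Tfh_TILS against Tfh_OTII by 2.11 (by 2.19 after scaling, adjusted p = 0.00139 and 0.000511). Ptpn1 rose over Th1_Vitro in Tfh_Vitro by 2.88 (1.83 after scaling, limma adjusted p = 1.8e-05 and 0.000623) and in Tfh_OTII by 3.25 (2.14 after scaling, adjusted p = 3.09e-06 and 8.77e-05). It fell in Tfh_TILS against Tfh_OTII by 1.25 (by 1.33 after scaling, limma adjusted p = 0.00973 and 0.00352). Socs2, a relative of Socs3 induced mainly through STAT5, was at 44.3, 58.1 and 48.3 TPM in Tfh_TILS and at most 28.7 TPM in any culture library, and rose over Tfh_Vitro by 1.23 ± 0.26 (1.08 after scaling, limma adjusted p = 0.0319 and 0.0349), a call lost as deposited without Tfh_TILS replicate 2 or 3, Tfh_Vitro replicate 1 or 2, or Tfh_OTII replicate 1 or 2 (adjusted p = 0.0542 to 0.189). Among receptors, Il11ra1, the IL-11 binding chain, rose in Tfh_OTII over Tfh_Vitro by 0.97 ± 0.22 (0.91 after scaling, adjusted p = 0.0359 and 0.041), from 9.43, 10.2 and 10.2 TPM to 19.3, 22.0 and 20.2 TPM. That call was lost as deposited without Tfh_TILS replicate 3 or any library of the 2 cultures (limma adjusted p = 0.0553 to 0.151).

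**Figure D4:**
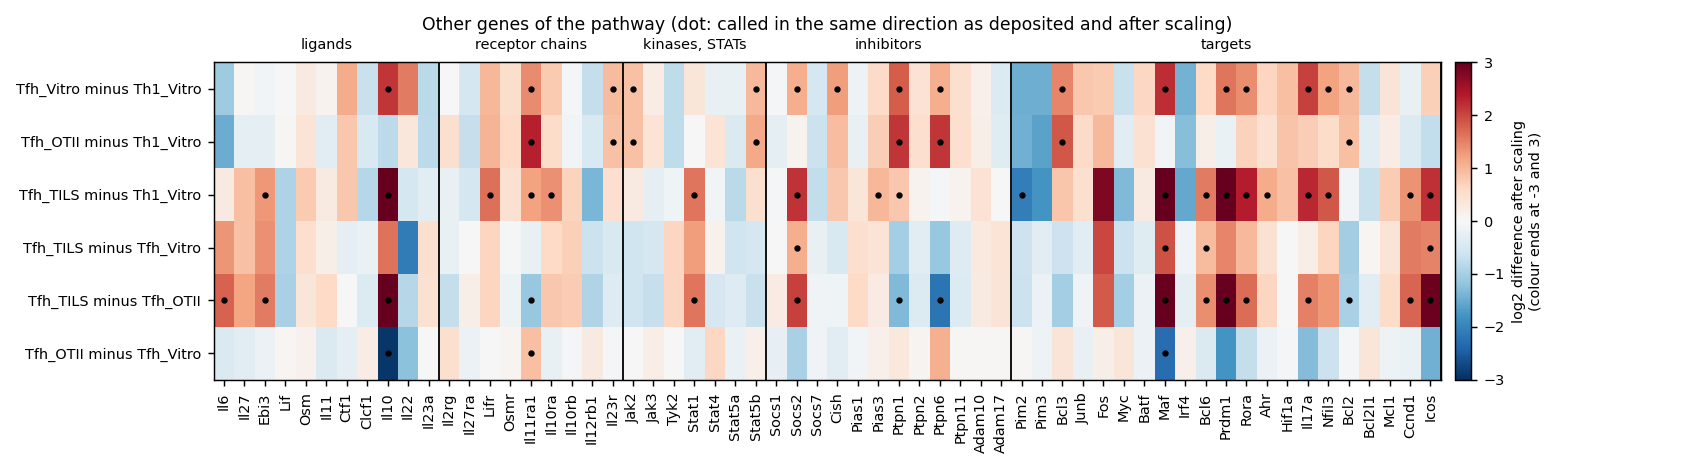
Differences of group means on the log2(TPM + 1) scale after scaling for 60 of the 61 tested pathway genes in the 6 comparisons, red for higher and blue for lower in the first group, with colours ending at 3 either way. Dots mark genes called in the same direction as deposited and after scaling, 16 in the top row and 3 in the bottom row.

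The genes most like Il21 over the 12 libraries, by Pearson correlation of scaled log2 values, were Prelid2 (r = 0.99), Tcf19 (0.97), Ppp3cc (0.97), Fam162a (0.97) and Ccne1 (0.97). They were picked from 10788 genes that averaged 5 TPM or over in any group. Left out beforehand were symbols starting with Gm and a digit, Mir, Snor, Rn or mt-, ending in Rik or holding -ps. Segments of immunoglobulins and T cell receptors were left out as well. Prelid2, a mitochondrial protein gene, averaged 50.5 ± 5.0 TPM in Tfh_Vitro and 42.9 ± 3.8 in Tfh_OTII against 11.3 ± 2.3 in Tfh_TILS and 6.76 ± 4.2 in Th1_Vitro (SD, n = 3). Among the genes most like Socs3 were Galnt6 (0.96), Slc2a1, the glucose transporter GLUT1 (0.96), Ppp1r18 (0.96) and Fcho1 (0.96). These are descriptions over libraries that share 4 groups. Among the 8 genes, Il21 correlated most with Il21r (0.87), and Il21 and Il6st ran opposite (-0.77).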

How the data were processed

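RNA from 12 libraries of mouse CD4+ T cells was sequenced as stranded total RNA with ribosomal RNA removed, in read pairs of 75 bases, per the labels' protocols. The authors deposited 1 file of TPM per library, with 1 value a gene symbol, and each sums to 1000000. The tool kallisto and the build mm10 are named in the submitters' processing notes, and the kallisto version, transcript set and strand setting are not given in the sources used here. The files hold no counts, so depth is unknown and no counting interval is given.

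Here log2(TPM + 1) was fitted with limma 3.58.1 in R 4.3.3, with the 4 group means as terms, all 12 libraries in 1 fit and a trend in the prior variance. The 23308 genes that averaged 1 TPM or over in any group were tested in 6 comparisons, with Benjamini-Hochberg adjustment over all of them, and errors are limma's standard errors (SE). Fold changes on this scale understate changes of low genes. Size factors for median-of-ratios scaling came from 16404 genes above 0 in all libraries. The fit was tested on simulated data, independent values around means shared by all groups, with 200 genes changed in Tfh_Vitro only. These data held no shift in composition like that of Th1_Vitro, so the test does not cover its effect on the calls. Of the other pathway genes, the text names for each comparison up to 3 with the largest difference in each direction among those called both ways, and the ligand Il6 in addition, which was chosen after its values were seen. A gene of the pathway list and a gene correlated with Socs3 are not reported here by name, and the first stays in the counts but not in the plot of the pathway. Alternatives were a trimmed-mean scaling, TPM recomputed without predicted, ribosomal, small RNA and mitochondrial genes, pseudocount 0.1, no filter or a filter of 5 TPM, only the 2 groups compared, a replicate block, and leaving out each library. The members and lists were chosen with earlier results of these data known. Nothing says that replicates are separate animals or cultures, so the p-values reflect no more than the spread of these libraries, which may be technical. Positions are from GENCODE M21 and promoter windows from RefSeq (GRCm38.p6), and all 8 genes matched in both. Figures and tables were made with Python 3.11.15, pandas 2.3.3 and matplotlib 3.10.9.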

Additional observations from a re-analysis of the deposited data

How the results depend on the processing

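Counts are given in the order Tfh_Vitro, Tfh_OTII and Tfh_TILS against Th1_Vitro, then Tfh_TILS against Tfh_Vitro, Tfh_TILS against Tfh_OTII, and Tfh_OTII against Tfh_Vitro. Of the 8 genes, 6, 5, 6, 1, 2 and 0 were called as deposited. All genes called higher and lower were then 9569 and 119, 9956 and 270, 11501 and 140, 269 and 220, 1858 and 1698, and 230 and 325 of 23308. Of the 8 genes, those called were 2, 4, 0, 1, 3 and 0 after median-of-ratios scaling, 1, 3, 0, 1, 2 and 0 after trimmed-mean scaling, 5, 4, 2, 2, 4 and 1 without predicted, ribosomal, small RNA and mitochondrial genes, 6, 5, 7, 1, 2 and 0 with a filter of 5 TPM, and 5, 5, 3, 1, 3 and 2 with only the 2 groups compared. All genes called higher and lower were 2104 and 1248, 2901 and 1889, 2434 and 1764, 259 and 285, 1635 and 1938, and 158 and 283 after median-of-ratios scaling. After trimmed-mean scaling they were 2009 and 753, 2521 and 1467, 2416 and 1101, 187 and 162, 1672 and 1294, and 120 and 323. Of the 17033 genes left without those classes, they were 1507 and 558, 1705 and 1363, 2719 and 684, 392 and 151, 2094 and 688, and 39 and 252. A pseudocount of 0.1 and no filter left 6, 5, 6, 1, 2 and 0 of the 8 genes. All genes called higher and lower were 10950 and 108, 10774 and 279, 12213 and 124, 147 and 115, 1447 and 1334, and 133 and 226 with that pseudocount. They were 9052 and 95, 9600 and 214, 10975 and 100, 175 and 169, 1458 and 1462, and 203 and 243 of 34778 with no filter. With a filter of 5 TPM they were 7805 and 107, 7962 and 234, 8726 and 135, 361 and 277, 1788 and 1736, and 282 and 360 of 12852. With only the 2 groups compared they were 9820 and 79, 7900 and 165, 9250 and 56, 17 and 114, 1276 and 2005, and 2111 and 561. Leaving out 1 library gave 5 to 7, 5 to 6, 3 to 7, 1 to 2, 1 to 4 and 0 to 1 of the 8 genes as deposited and 1 to 5, 2 to 5, 0 to 1, 1 to 2, 1 to 3 and 0 to 1 after scaling. All genes called either way were then 6303 to 10385, 7703 to 10726, 9292 to 12222, 94 to 1028, 2000 to 4826 and 144 to 1047 as deposited. After scaling they were 1509 to 3604, 3114 to 4973, 2609 to 4338, 86 to 784, 1763 to 4424 and 109 to 688.

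Of the 61 pathway genes, 40, 34, 48, 6, 17 and 3 were called as deposited, 21, 15, 26, 5, 22 and 5 after median-of-ratios scaling, 17, 11, 21, 2, 18 and 2 after trimmed-mean scaling, 19, 13, 29, 7, 22 and 4 without the abundant gene classes, 41, 35, 47, 3, 16 and 3 with pseudocount 0.1, 39, 34, 45, 3, 17 and 3 with no filter, 38, 32, 44, 7, 20 and 5 with a filter of 5 TPM, and 37, 29, 40, 1, 15 and 12 with only the 2 groups compared. Leaving out 1 library gave 35 to 46, 27 to 41, 42 to 50, 0 to 13, 14 to 23 and 0 to 6 as deposited and 7 to 22, 8 to 18, 16 to 27, 0 to 10, 13 to 23 and 0 to 6 after scaling. The counts of all genes called, given above for the same settings, shifted as well. The cause of these shifts was not tested.

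Deviations from the group means of same-numbered libraries of different groups correlated from -0.436 to 0.279, with 2 of 18 pairs over 0.1. Those of differently numbered libraries correlated from -0.244 to 0.398, with 7 of 36 over 0.1. Deviations from a mean of 3 libraries depend on each other within a group, so these values cannot exclude that replicate numbers pair the samples. With the replicate block the counts were 6, 5, 6, 1, 2 and 0 for the 8 genes and 40, 34, 46, 2, 17 and 2 for the pathway genes, and with the block and scaling 2, 4, 0, 1, 2 and 0 and 16, 12, 21, 3, 17 and 3. All genes called higher and lower with the block were 8515 and 113, 9091 and 261, 10498 and 125, 160 and 119, 1506 and 1392, and 150 and 235. With the block and scaling they were 1806 and 987, 2512 and 1653, 2068 and 1439, 200 and 187, 1424 and 1582, and 117 and 252.

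Differences that changed sign (log2) did so mostly under rescaling. Against Th1_Vitro, under median-of-ratios scaling (and the same with the block), trimmed-mean scaling and exclusion of abundant classes, they were -1.02, -0.95 and -0.91 for Il6st and -0.61, -0.54 and -0.48 for Pim1 in Tfh_Vitro, -0.35, -0.32 and -0.40 for Il6ra and -0.53, -0.49 and -0.57 for Il6st in Tfh_OTII, and -0.46, -0.40 and -0.23 for Il21 and -0.38, -0.30 and -0.10 for Pim1 in Tfh_TILS. Il21r in Tfh_TILS was -0.24 and -0.16 under the 2 scalings. Socs3 in Tfh_OTII against Tfh_Vitro was -0.016, -0.060 and -0.18. Leaving out 1 library, as deposited and after scaling together, differences that changed sign ran from -1.29 to 0.24 for Il6st, -0.76 to 0.80 for Pim1 and -0.044 to 1.70 for Stat3 in Tfh_Vitro against Th1_Vitro, -0.55 to 0.91 for Il6ra, -0.83 to 0.78 for Il6st and -1.26 to 0.34 for Pim1 in Tfh_OTII against Th1_Vitro, -1.08 to 0.90 for Il21, -0.39 to 1.32 for Il21r, -0.19 to 1.47 for Il6st, -0.63 to 1.17 for Pim1 and -0.065 to 1.88 for Stat3 in Tfh_TILS against Th1_Vitro. Between the Tfh groups they ran from -0.05 to 0.36 for Il6ra, -0.39 to 0.10 for Jak1, -0.018 to 0.67 for Pim1 and -0.24 to 0.58 for Stat3 in Tfh_TILS against Tfh_Vitro, -0.62 to 0.14 for Stat3 in Tfh_TILS against Tfh_OTII, -0.11 to 0.16 for Socs3 in Tfh_OTII against Tfh_Vitro. The Il21 differences of both Tfh cultures to Th1_Vitro and to Tfh_TILS were called under every alternative run. Depth limits could not be set without counts.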

Other observations

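The summed level of 8 Tfh markers was 431 to 668 TPM in Tfh_TILS, 291 to 368 TPM in Tfh_Vitro, 235 to 240 TPM in Tfh_OTII and 149 to 235 TPM in Th1_Vitro, so the group with the most of these markers as deposited had low Il21. The sum includes Cxcr5 and Pdcd1, the genes of the proteins by which Tfh_TILS cells were sorted, so its level there is not independent of the sort. The summed level of 5 regulatory T cell markers, Foxp3, Il2ra, Ikzf2, Ctla4 and Nrp1, was 873 to 1551 TPM in Tfh_TILS, 586 to 813 TPM in Tfh_Vitro, 544 to 592 TPM in Tfh_OTII and 121 to 179 TPM in Th1_Vitro. After scaling the mean of the Tfh sum was 411, 281, 197 and 356 in the same order, with Th1_Vitro then second. These sums were not tested.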
